A study of Mus musculus with 4 samples.

Results

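The regions described here are 7158 accessible sites that the authors' peak list for Gata2cKO germ cells holds, that their Gata2WT list lacks, and that lie away from the ends of protein-coding genes. Peaks on the 19 autosomes and X were taken, and rows with the same interval were merged. The members were thus chosen by the authors' peak calls themselves. A Gata2cKO peak was taken when no Gata2WT peak overlapped it by 1 bp, when it lay more than 1 kb from either end of every protein-coding gene, and when the nearest such end was at most 100 kb away. The Gata2cKO list held 44139 merged peaks and the Gata2WT list 49394. Of the 8710 Gata2cKO peaks without a Gata2WT overlap, 631 lay at a gene end and 921 lay beyond 100 kb, which left the 7158. They are called cKO-only distal peaks below. They made up 26.5% of the 26982 distal Gata2cKO peaks, a share that the choice itself sets and from which nothing is read. The corresponding WT-only distal peaks numbered 11313, or 36.5% of 31026 distal Gata2WT peaks.

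The lists come from ATAC-seq, in which the Tn5 transposase cuts and tags open chromatin, on germ cells enriched from female mouse ovaries at E14.5 (embryonic day) with anti-SSEA1 MicroBeads. There were 2 samples of Gata2cKO embryos and 2 samples of Gata2WT embryos, all C57BL/6J and of about 10000 cells each. Every embryo came from a cross of Gata2flox/+ Prdm1-Cre males with Gata2flox/flox females, so a floxed Gata2 allele came from each mother in both groups. In Gata2cKO the floxed Gata2 is deleted by Cre expressed from Prdm1, a gene switched on in germ cell precursors and also in some other embryonic cell types. The labels used here do not state the full alleles of the Gata2WT embryos, whether those embryos carried Cre, or whether animals were pooled in a sample. The cell type field reads ovarian cells, without naming germ cells. A peak lay within 1 kb of an end of 5 of 6 germ cell marker genes in the Gata2cKO list and of 6 of 6 in the Gata2WT list. In both lists the same held for 4 of 5 granulosa cell markers, for 3 of 4 endothelial markers, for 2 of 3 mesothelial or epithelial markers, and for 1 of 4 macrophage and 1 of 4 erythroid markers. Stroma had 1 of 3 in the Gata2cKO list (Tcf21) and 2 of 3 in the Gata2WT list (Tcf21 and Nr2f2). Some somatic cell markers thus had a peak at a gene end in both lists, which does not tell whether those cells were present. Each genotype had 1 combined list, so no value carries a replicate error and no test between genotypes was possible. A site missing from the Gata2WT list fell short of the peak threshold or of the shortest interval there, which differs from being closed.

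Open chromatin far from gene ends often marks enhancers, stretches of DNA where transcription factors bind and raise the activity of a gene that can lie far away. Their use differs more between cell types than that of promoters does. GATA2, a factor with zinc fingers that recognise GATA motifs, binds many such elements and is best known for its part in blood stem and progenitor cells. Female germ cells at this stage shut down pluripotency genes such as Nanog and Pou5f1 and enter meiosis under BMP and retinoic acid signals.

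Sequence could be read for the few cKO-only peaks that fell on an annotated start site inside or between genes. RefSeq start-site windows for GRCm38.p6 cover 250 bases before a start and 50 after it, and 69 cKO-only summits fell in 70 of them, 24 of these of coding genes. The 4 shown are 3 coding genes with strong peaks and the lncRNA start beside Prdm1, the gene that drives the Cre. Each is the part of the window that the peak covers, 5′ to 3′ on the gene's strand, with GATA-type motifs in capitals (AGATAA on either strand, and likewise the letters TGATAA, then AGATAG, and as the last form TGATAG). P2rx7 encodes an ATP-gated ion channel, and its stretch is chr5:122650133-122650389 on the plus strand. Vrtn, which affects vertebral number in pigs, has chr12:84642403-84642604 on the plus strand. Bdnf, a neurotrophin gene with several alternative starts, has chr2:109722671-109722768 on the plus strand. The lncRNA Gm35028 has chr10:44427939-44428238 on the minus strand.
P2rx7: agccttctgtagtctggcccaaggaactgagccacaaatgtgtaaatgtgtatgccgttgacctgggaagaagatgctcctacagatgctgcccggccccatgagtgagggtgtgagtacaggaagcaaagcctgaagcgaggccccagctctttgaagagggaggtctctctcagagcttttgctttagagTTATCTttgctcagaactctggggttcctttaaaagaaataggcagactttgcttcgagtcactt
Vrtn: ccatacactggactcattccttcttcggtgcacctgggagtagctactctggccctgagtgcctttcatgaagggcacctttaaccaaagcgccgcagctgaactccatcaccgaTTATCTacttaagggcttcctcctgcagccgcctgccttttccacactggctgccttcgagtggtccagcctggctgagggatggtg
Bdnf: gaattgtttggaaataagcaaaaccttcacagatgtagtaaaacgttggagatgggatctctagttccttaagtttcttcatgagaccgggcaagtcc
Gm35028: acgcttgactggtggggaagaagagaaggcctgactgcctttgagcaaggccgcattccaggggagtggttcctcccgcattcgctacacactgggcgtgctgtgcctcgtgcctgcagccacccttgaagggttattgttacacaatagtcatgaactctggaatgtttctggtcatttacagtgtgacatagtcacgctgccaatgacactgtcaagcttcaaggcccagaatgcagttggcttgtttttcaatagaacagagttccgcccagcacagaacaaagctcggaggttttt
The P2rx7 and Vrtn stretches each hold 1 GATA-type motif, and those of Bdnf and Gm35028 hold none. The P2rx7 peak had a −log10 q of 11.8 and 28 fragments at its summit. The Bdnf peak had a −log10 q of 5.18, the Vrtn peak 5.03 and the Gm35028 peak 3.61. The Bdnf and Vrtn peaks lay above the upper quartile of 3.90 of the cKO-only peaks, and the Gm35028 peak lay between their median and that quartile.

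Other cKO-only peaks overlapped microRNA genes. MicroRNAs pair with messenger RNAs through a short seed (bases 2 to 8), shown in capitals in the RefSeq mature forms below. The forms shown belong to the 4 conserved microRNA genes whose interval a cKO-only peak overlapped, where sequence could be shown, and to Mir10b, whose peak lay 678 bp away.
miR-199b-3p: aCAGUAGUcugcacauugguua
miR-199a-3p: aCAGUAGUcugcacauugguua
miR-200c-3p: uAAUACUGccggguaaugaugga
miR-135b-3p: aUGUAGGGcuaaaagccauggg
miR-10b-5p: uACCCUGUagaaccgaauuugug
The first pair have the same mature form and the seed CAGUAGU, although their genes lie on chromosomes 2 and 9 inside Dnm1 and Dnm2. Their peaks are described with the other noncoding genes.

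Most cKO-only distal peaks were weak and narrow. Strength is given as the authors' −log10 q, the false discovery rate of the summit within its own list, and as the number of fragments piled up at the summit, which was recovered from the authors' fold enrichment and −log10 p. The median −log10 q was 2.84 (quartiles 1.82 and 3.90) and the highest was 51.2. The median summit held 11 fragments, and 904 peaks (12.6%) held 8, the fewest at which any peak was listed in either genotype. Just 1.69% (121 peaks) reached a −log10 q of 10. By comparison, WT-only distal peaks had a median −log10 q of 2.82 and also 11 fragments in their own list, while Gata2cKO distal peaks shared with Gata2WT had 6.62 and 18 fragments. The 2 kinds of single-list peak were thus alike in these medians, and both were far weaker than shared peaks. The local background was the genome-wide value at 30.5% of cKO-only peaks, at 39.9% of WT-only peaks and at 14.49% of shared Gata2cKO peaks. That genome-wide value was 2.01 fragments in the Gata2cKO list and 2.19 in the Gata2WT list, and the lists are not scaled to each other.

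The 3 limits of the rule cut through peaks of low or ordinary strength. The cKO-only peaks closest to a Gata2WT peak were 1 bp away (near Smurf2, −log10 q 1.56), 4 bp (near Foxl1, 2.81) and 7 bp (near D430041D05Rik, 1.35). On the other side, the shared peaks with the least measured overlap met a Gata2WT peak by 1 bp, near Tacr2 (−log10 q 1.88), Txnip (2.36) and Prps1 (3.61). A Gata2WT peak stood within 10 bp of 5 cKO-only peaks, and the measured overlap was at most 10 bp in 30 shared peaks. Overlap was measured with 1 Gata2WT peak per shared peak, so some of these may overlap another by more. At the gene-end limit, peaks at Stac (1001 bp) and Acrbp (1002 bp) were in, and peaks 1000 bp from Cradd and Rab37 were out. At the far limit, a peak 99774 bp from Sstr2 was in, and one 100125 bp from Pmepa1 was out. The −log10 q values at the gene-end limit were 2.88 (Stac) and 2.38 (Acrbp) inside, and 4.33 (Cradd) and 2.19 (Rab37) outside. The Sstr2 peak had 1.05 and the Pmepa1 peak 2.02.

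The share of distal Gata2cKO peaks without a Gata2WT counterpart depended on strength. It was 60.7% below a −log10 q of 2, 32.8% between 3 and 5, 13.5% between 5 and 10, and 3.95% between 10 and 15. At 20 and above it was 0.315%, or 9 of 2858 peaks (95% Wilson interval 0.166% to 0.597%, counting error only). The WT-only share of distal Gata2WT peaks took the same course at a higher level below 20, with 73.5%, 48.0%, 21.0% and 5.37% in the same 4 ranges, and stood at 0.184% at 20 and above, or 6 of 3261. Strong sites were therefore nearly always present in both lists.

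**Figure D1:**
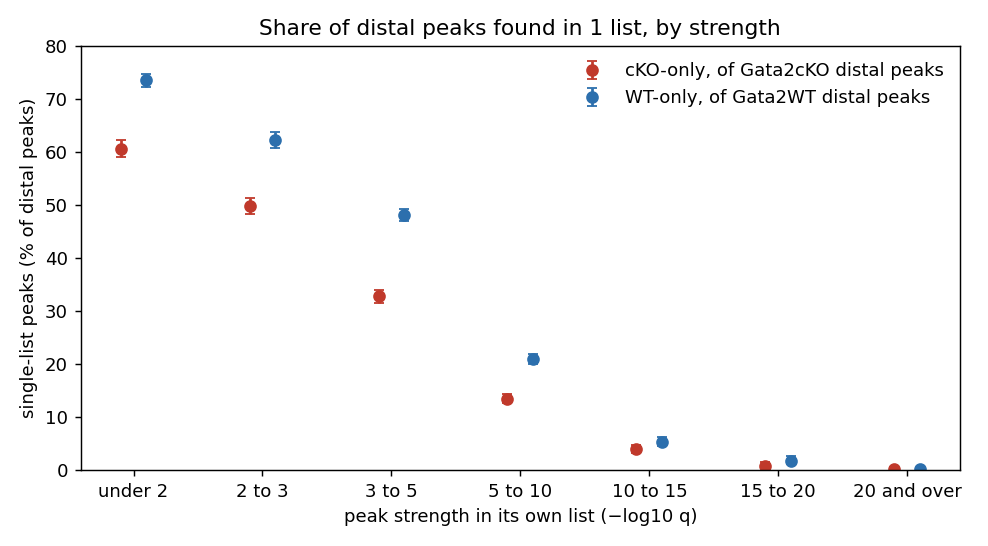
Share of distal peaks found in 1 list alone (%, y axis) by the −log10 q of the peak in its own list (x axis), for cKO-only peaks (red) and WT-only peaks (blue); bars are 95% Wilson intervals. The cKO-only share fell to 0.315% at a −log10 q of 20 and above, against 60.7% below 2.

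Width set cKO-only peaks apart from shared peaks of the same strength. Over all of them the median width was 332 bp (quartiles 282 and 419), against 358 bp for WT-only peaks and 516 bp for shared Gata2cKO peaks. The shortest interval a list could hold was 244 bp for Gata2cKO and 254 bp for Gata2WT. An interval shorter than 254 bp could thus stand in the Gata2cKO list alone. Shared Gata2cKO peaks were wider in each stronger class, with a median of 347 bp below a −log10 q of 2 and 828 bp at 20 and above. The median of cKO-only peaks stayed between 319 and 373.5 bp in all 7 classes. At a −log10 q of 10 to 20, 59.8% of 112 cKO-only peaks were under 400 bp wide, against 35.2% of 176 WT-only peaks and 10.96% of 3721 shared Gata2cKO peaks. More than 1 summit was listed for 1.02% of cKO-only, 1.80% of WT-only and 11.7% of shared Gata2cKO peaks. A wide interval has more room to touch a Gata2WT peak, so width is tied to the rule, and these values describe the peaks without a test.

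**Figure D2:**
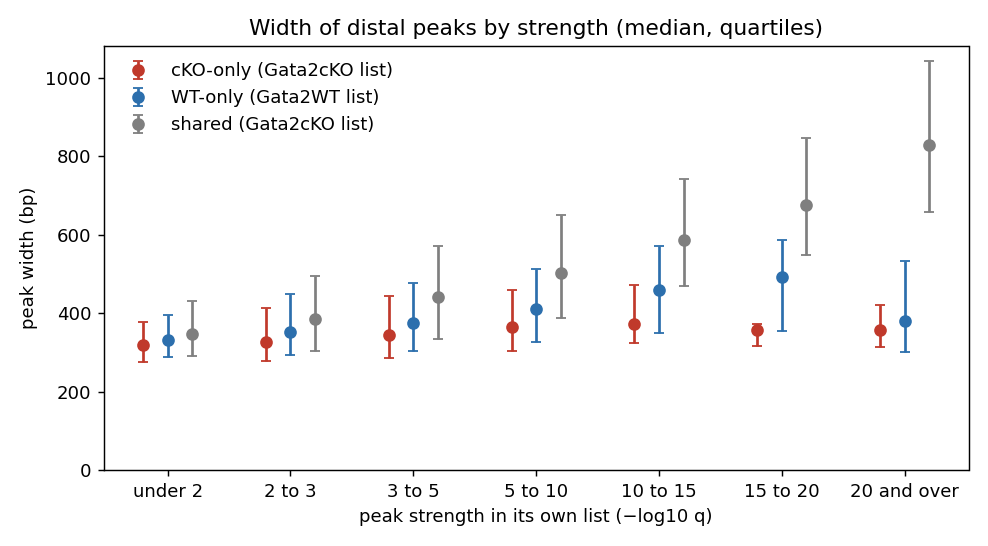
Width of distal peaks in bp (y axis) by −log10 q class in the peak's own list (x axis), for cKO-only (red), WT-only (blue) and shared Gata2cKO peaks (grey); points are medians and bars run between the quartiles. The cKO-only medians stay between 319 and 373.5 bp while the shared medians reach 828 bp.

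The strongest cKO-only peak lay at chr1:183299197-183299445, with its summit inside Aida and its nearest gene end that of Brox, a gene for a protein with a BRO1 domain. It had a −log10 q of 51.2 and 88 fragments over a local background of 9.14, yet was only 249 bp wide. That is under 254 bp, the shortest interval of the Gata2WT list. A Gata2WT peak with a −log10 q of 95.4 stood 1.145 kb away. The next was 422 bp wide, at chr5:127623257-127623678 inside Slc15a4 and nearest to Glt1d1, with a −log10 q of 25.6 and 40 fragments. A peak inside Cacna1a, which encodes a calcium channel subunit, followed at chr8:84429026-84429382 with a −log10 q of 23.5. The peak nearest to Sdk2, a gene for a cell adhesion molecule, lay between genes at chr11:114109392-114109705, with a −log10 q of 23.1 and the nearest Gata2WT peak 32.7 kb away. Those nearest to Nudt4 (21.7), Rph3al (20.5), Cracr2a (20.5), Fn1 (20.2) and Car6 (20.1) complete the 9 at or above a −log10 q of 20. Fn1 encodes fibronectin, a protein of the extracellular matrix. Its peak at chr1:71724219-71724844 was the widest of the 12 strongest at 626 bp, stood on the genome-wide background, and lay 70.9 kb from the gene. The peaks nearest to Ptpn3 (−log10 q 19.96, 313 bp), Zim1 (18.2, 278 bp) and Qrich1 (16.9, 359 bp) close the list of 12. A Gata2WT peak stood 0.35 kb from the Zim1 peak. Over the 12 strongest peaks, the distance to the nearest Gata2WT peak thus covered 0.35 to 32.7 kb.

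Among the 121 cKO-only peaks that reached a −log10 q of 10, the median width was 365 bp and the median distance to a Gata2WT peak 7.13 kb. In 79 of them that distance was over 5 kb, so most did not stand on the flank of a Gata2WT site. Their summits lay inside a coding gene in 66 cases. At the other end of the width scale, the 5 widest cKO-only peaks were of ordinary strength. They measured 1216 bp near B3galnt2 (−log10 q 2.22), 1144 bp near Sema5b (5.60) and Coa7 (2.44), 1074 bp near Lhfpl3 (5.12) and 1057 bp near Sipa1l1 (4.38).

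Most cKO-only peaks had other peaks within 20 kb. The median distance to the nearest Gata2WT peak of any kind was 7.65 kb, and 5844 (81.6%) had one within 20 kb. A shared Gata2cKO peak lay within 20 kb of 5036 (70.4%). A Gata2WT peak lay within 0.5 kb of 350 (4.89%) and within 1 kb of 673 (9.40%). In 327 of those 673 (48.6%) the neighbour was itself WT-only, so a site in each list stood side by side without touching. From one cKO-only peak to the next the median distance was 48.1 kb, against 11.2 kb to the nearest shared Gata2cKO peak. Shared distal Gata2cKO peaks stood at a similar median of 10.5 kb from another shared one. WT-only peaks, which were more numerous, stood a median of 32.2 kb apart.

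Summits of cKO-only peaks lay inside a protein-coding gene in 58.5% of cases (95% Wilson interval 57.3% to 59.6%), against 58.1% of WT-only peaks and 55.0% of shared Gata2cKO peaks. The gene table gives no exons, so exons, introns and UTRs were not analysed here. Of distal Gata2cKO peaks, 27.7% were cKO-only inside genes and 25.0% between genes. The median distance to a gene end was 15.6 kb (quartiles 6.84 and 34.8 kb), against 17.5 kb for WT-only and 13.8 kb for shared Gata2cKO peaks. The cKO-only share was 22.4% at 1 to 5 kb from a gene end, 27.5% at 5 to 20 kb, 27.4% at 20 to 50 kb and 28.7% at 50 to 100 kb. Distal peaks next to genes were thus the least often cKO-only, and they were also the least often WT-only, with 29.6%, 36.1%, 39.5% and 41.4% of distal Gata2WT peaks in the same 4 ranges. Restricted to a −log10 q of 2 to 5, the same shares were 36.3%, 41.2%, 39.9% and 42.5%, with the peaks nearest to genes again lowest.

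By chromosome, the cKO-only share ran between 24.0% (chromosome 7) and 29.0% (chromosome 12) on the autosomes. It was lowest on X, with 101 of 479 distal peaks or 21.1% (95% Wilson interval 17.7% to 25.0%). The WT-only share was lowest on X as well, at 182 of 557 or 32.7%, next to 33.1% on chromosome 11. The distal Gata2cKO peaks of X were also the strongest, with a median −log10 q of 6.68 against 4.42 to 5.28 on the autosomes. At a −log10 q of 2 to 5, 57 of 148 X peaks were cKO-only (38.5%), inside the autosomal range of 36.1% to 44.4%. Where only summits within 0.25 kb counted as shared, the X share was 27.3%, against 33.4% over all distal Gata2cKO peaks. X thus stood below the share over all chromosomes under both overlap rules, and inside the autosomal range among peaks of similar strength.

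**Figure D3:**
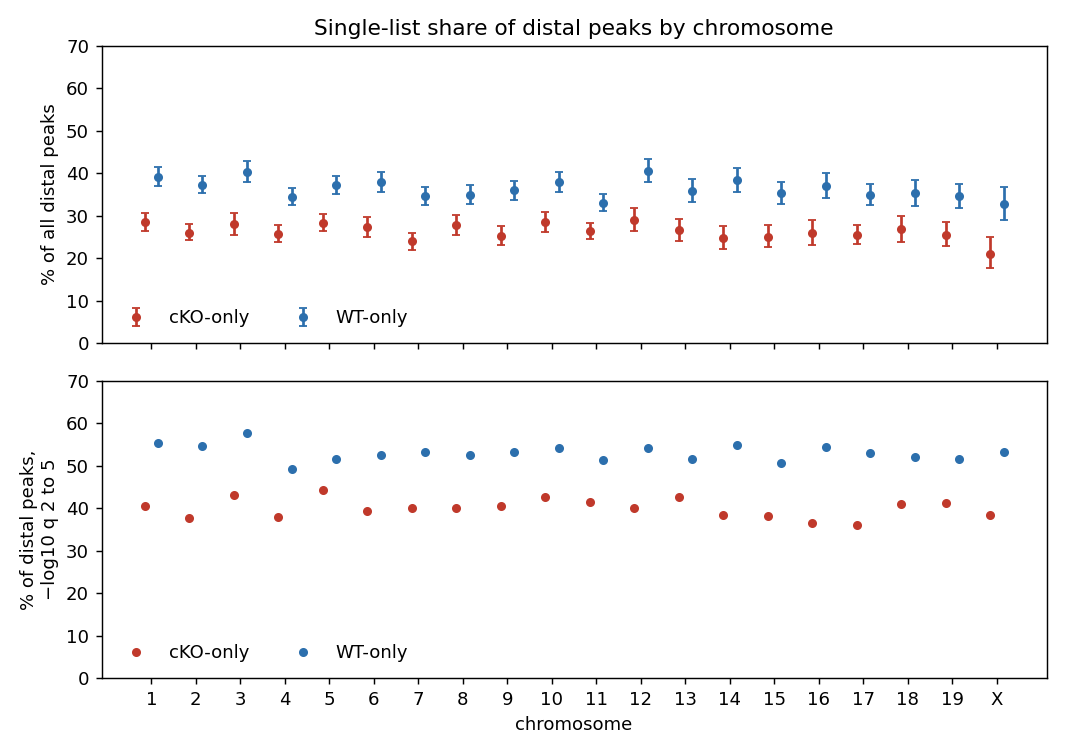
Share of distal peaks that are cKO-only (red) or WT-only (blue) on each chromosome (x axis), in % of distal peaks of the peak's own list; the upper panel takes all distal peaks, with 95% Wilson intervals, and the lower panel those with a −log10 q of 2 to 5. X has the lowest cKO-only share of all peaks (21.1%) and lies inside the autosomal range in the lower panel (38.5%).

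The 7158 peaks were given to the gene with the nearest end, which reached 4888 of 21631 protein-coding genes (22.6%); WT-only distal peaks reached 6575 (30.4%). A single cKO-only peak was the rule, in 3430 genes, with 957 genes at 2 and 307 at 3. The 12 genes with the most held 7 or 8. Msrb3, which encodes a methionine sulfoxide reductase, had 8 cKO-only, 4 WT-only and 5 shared peaks. Its 8 peaks had −log10 q values between 1.30 and 9.24, and 3 of them lay inside the gene. The ARF-like GTPase gene Arl15 had 8 cKO-only, 7 WT-only and 7 shared peaks, and the kinase gene Map4k4 had 8, 5 and 5 in that order. At Nhsl1 there were 8 cKO-only, 2 WT-only and 14 shared peaks, all 8 with their summits inside a gene. Kazn, Zfand3, Igsf21, Pkp4, Ror2, Ankrd11, Smad6 and Usp6nl had 7 each. Of these, Igsf21 had more WT-only than cKO-only peaks (8), Kazn as many (7), and Smad6, which encodes an inhibitor of BMP signalling, the fewest (1). Counts per gene followed how many distal peaks a gene had in any case. Genes with no shared distal peak held 0.125 cKO-only peaks on average, those with 3 to 5 shared peaks 0.979, and the 43 genes with 11 or more 2.91. For WT-only peaks these means were 0.208, 1.49 and 3.58. Median gene length also grew over these classes, 10.5, 51.8 and 160.5 kb. Both kinds of single-list peak met in 2868 genes, which were 58.7% of the genes with a cKO-only peak and 43.6% of those with a WT-only peak.

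In 62 genes there were 3 or more cKO-only distal peaks and no WT-only one, among 501 genes with 3 or more cKO-only peaks. In the other direction there were 342 such genes, among 1129 with 3 or more WT-only peaks. Only 10 genes had 4 or more cKO-only peaks and no WT-only one. For comparison, 123 genes had 4 cKO-only peaks, 42 had 5, 16 had 6, 9 had 7 and 4 had 8. A WT-only distal peak was present in 30.4% of all coding genes and in 58.7% of those with a cKO-only peak. The 10 genes included Sptlc1, a subunit gene of the enzyme that starts sphingolipid synthesis, with 5 cKO-only peaks and a highest −log10 q of 5.16. Nrf1, a transcription factor gene for mitochondrial and metabolic genes, also had 5, none above 3.65. Suds3, which encodes a subunit of the SIN3 histone deacetylase complex, had 4. These genes were picked out after their counts were seen.

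Runs of cKO-only peaks with gaps of at most 20 kb held 1897 of the 7158 (26.5%), against 36.0% of WT-only peaks. Just 32 runs had 4 or more. Of the 3 runs with the most peaks, 6 each, one stood in Plcg2, a phospholipase gene active in immune receptor signalling, in 30.1 kb at chr8:117515450-117545534. No shared peak and 1 WT-only peak stood in that span, and none of the 6 exceeded a −log10 q of 4.38. A run of 6 in Nhsl1 covered 51.9 kb with 4 shared peaks among them. The run of 6 nearest to Map4k4, partly outside that gene, covered 67.9 kb with 3 shared and 1 WT-only peaks. In Ankrd11, which encodes a chromatin regulator, 5 cKO-only peaks stood in 25.7 kb at chr8:123011545-123037200 with no other distal peak of either kind between them. Runs thus occurred both among shared peaks and without them.

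The 21 gene lists examined held 524 genes, of which 183 (34.9%) had at least 1 cKO-only distal peak, against 22.6% of all coding genes. Counts per gene grow with the number of distal peaks a gene has, so the share of a list's distal Gata2cKO peaks that were cKO-only is the closer measure, read against the 26.5% of all distal Gata2cKO peaks. WT-only shares of a list have their own background, the 36.5% of all distal Gata2WT peaks. In 20 of the 21 lists the 95% Wilson interval of the cKO-only share held 26.5%. The exception was the list of stroma and steroidogenic cell genes, with 5 of 47 peaks (10.6%, 4.63% to 22.6%), and where only summits within 0.25 kb counted as shared its share was 34.0%, next to 33.4% over all. The lists share genes, and peaks of 1 gene are not independent.

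**Figure D4:**
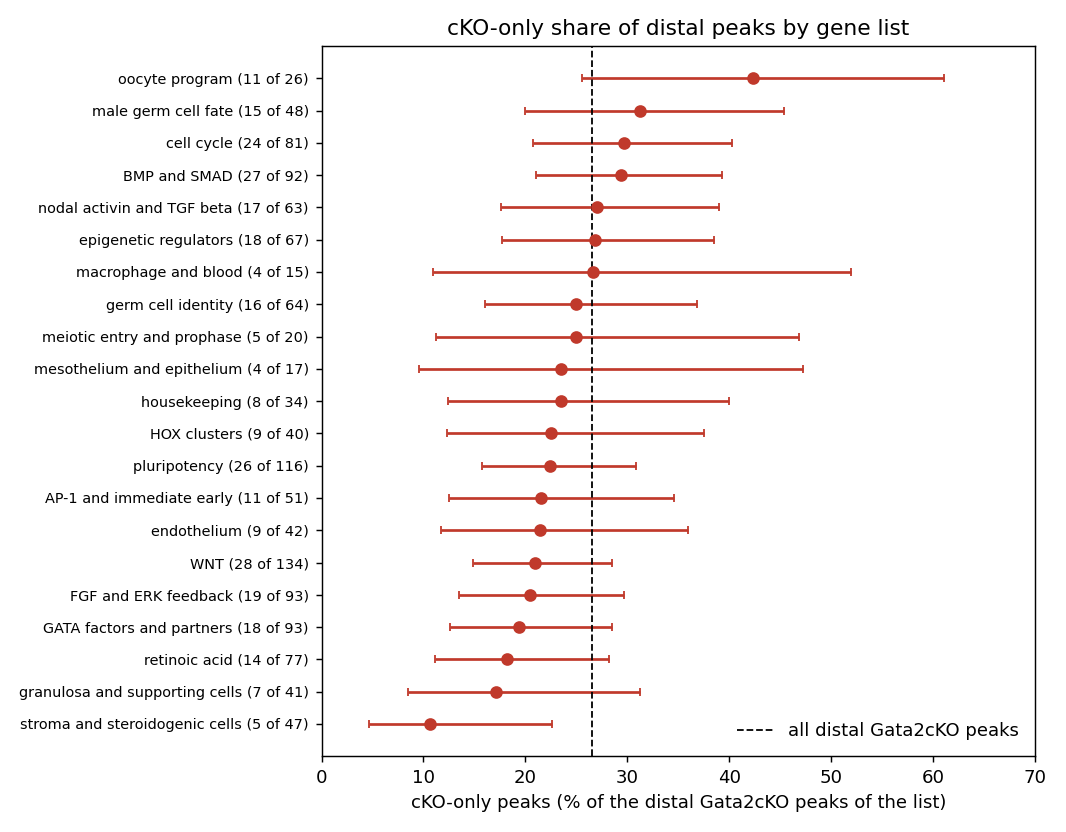
Share of distal Gata2cKO peaks that are cKO-only for each of 21 gene lists (% on the x axis, lists down the y axis with their cKO-only and all distal counts), with 95% Wilson intervals and the share over all distal Gata2cKO peaks as a dashed line. The interval of 20 lists holds 26.5%, from the oocyte list at 42.3% down to the stroma list at 10.6%, which alone does not.

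Pluripotency genes had 26 cKO-only peaks among 116 distal Gata2cKO peaks (22.4%), spread over 17 of 32 genes; 46 of 137 distal Gata2WT peaks were WT-only (33.6%). Esrrb, a nuclear receptor gene of the naive state, had 4 cKO-only, 5 WT-only and 11 shared peaks, the strongest cKO-only one at chr12:86433210-86433527 with a −log10 q of 5.87. Zfp281, a zinc finger gene, had 4 cKO-only and 7 WT-only peaks, and Otx2, a homeobox gene of the epiblast, had 3 and 2. Of the core factors, Nanog had 1 cKO-only, no WT-only and 5 shared distal peaks. That cKO-only peak, at chr6:122715847-122716178, lay 1.21 kb from the gene and had a −log10 q of 4.01 with 12 fragments. Sox2 had 1 cKO-only peak against 6 WT-only ones, with a −log10 q of 1.53 at 86.0 kb from the gene. Pou5f1, which encodes OCT4, had none, with 1 WT-only and 1 shared peak.

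Germ cell identity genes had 16 cKO-only of 64 distal peaks (25.0%) in 8 of 28 genes. Prdm1 had 3 cKO-only, 7 WT-only and 6 shared peaks. The strongest of the 3, at chr10:44488932-44489228 with its summit inside the gene, had a −log10 q of 8.63 and 19 fragments, 3.76 kb from a Gata2WT peak. The second inside the gene had 2.88, and the third, 8.91 kb outside it, is the Gm35028 peak whose sequence is shown above (3.61). Kit, which encodes the stem cell factor receptor, had 4 cKO-only, 5 WT-only and 8 shared peaks, the cKO-only ones with −log10 q values of 2.53 to 4.67. Fkbp6, which is needed for male meiosis in mice, had 2 cKO-only and no WT-only peaks, the stronger with 6.45. Dazl and Ddx4, RNA-binding protein genes of germ cells, had no cKO-only distal peak. Dazl had 2 WT-only and 1 shared distal peaks, and Ddx4 had none of either kind.

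Meiotic entry and prophase genes had 5 cKO-only of 20 distal peaks (25.0%), and just 5 of 46 genes had any. They were Majin (−log10 q 4.77), Hsf2bp (2.297), Ankrd31 (1.98), Stag3 (1.60) and Rec114 (1.26), with 1 peak each, all named after their counts were seen. Majin tethers telomeres to the nuclear envelope, Rec114 and Ankrd31 serve the making of meiotic DNA breaks, Hsf2bp their repair, and Stag3 is a meiotic cohesin subunit. WT-only peaks numbered 17 of 32 (53.1%, 95% Wilson interval 36.4% to 69.1%), with the 36.5% of all distal Gata2WT peaks at the interval's lower end. They reached 13 of these genes (28.3%, against 30.4% of all coding genes). Stra8, Bhmg1 (MEIOSIN), Zglp1, Rec8 and Sycp3, which start or carry out meiosis, had no cKO-only distal peak. Of these, Bhmg1, Zglp1, Rec8 and Sycp3 had no WT-only or shared distal peak either, and Stra8 had only 1 WT-only peak. Gata2 itself had no cKO-only distal peak, with 1 WT-only and 3 shared ones.

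The oocyte list had the highest share, 11 of 26 distal peaks (42.3%, 25.5% to 61.1%), in 7 of 22 genes. Its WT-only share was also high, at 12 of 27 (44.4%). Foxo3, which holds primordial follicles dormant, held 5 of the 11, beside 4 WT-only and 4 shared peaks. Its −log10 q values ran between 1.102 and 5.02, and without Foxo3 the list stood at 6 of 17 (35.3%, 17.3% to 58.7%). Among male germ cell fate genes, 15 of 48 peaks (31.3%) were cKO-only. Id4, an inhibitor of DNA binding that marks spermatogonial stem cells in mice, had 3 cKO-only and no WT-only peaks, the strongest with a −log10 q of 5.83 at chr13:48324365-48324715. Etv4 had 2 cKO-only and no WT-only peaks, and Etv5, needed to maintain spermatogonial stem cells in mice, had 2 of each.

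Among BMP and SMAD genes, 27 of 92 distal peaks (29.3%) were cKO-only, in 12 of 28 genes. Acvr1, a type I receptor gene for BMP ligands, had 3 cKO-only, 1 WT-only and 2 shared peaks. One of the 3, at chr2:58493051-58493441 with its summit inside Acvr1, had a −log10 q of 12.2 and 23 fragments and was the strongest cKO-only peak of the list. The 7 peaks of Smad6 spread over weak values, up to 4.58. For nodal, activin and TGF beta genes the count was 17 of 63 (27.0%). Inhbb, which encodes the activin beta B subunit, had 3 cKO-only and 1 WT-only peaks, of which a pair were close neighbours. Retinoic acid genes had 14 of 77 cKO-only (18.2%) and 41 of 101 WT-only (40.6%), and both intervals (11.2% to 28.2% and 31.5% to 50.3%) held the share over all distal peaks of their list. Rxra, a retinoid X receptor gene, had 2 cKO-only and 1 WT-only peaks. Its peak inside the gene, at chr2:27721086-27721655, had a −log10 q of 11.8 and 27 fragments, 18.3 kb from the nearest Gata2WT peak.

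WNT genes had 28 of 134 peaks cKO-only (20.9%). Tcf7l1, which encodes a repressor of WNT targets, had 4 cKO-only, 3 WT-only and 6 shared peaks, with all 4 inside the gene and up to a −log10 q of 6.22. Axin2, a feedback gene of the pathway, had 4 of each single-list kind, and Znrf3, a ubiquitin ligase gene that removes WNT receptors, had 3 cKO-only and no WT-only. The 3 at Znrf3 were weak, with a highest −log10 q of 1.52, below the lower quartile of 1.82 of all cKO-only peaks. FGF and ERK feedback genes had 19 of 93 (20.4%), with 3 at Spred2, an inhibitor of RAS signalling. GATA factors and partners had 18 of 93 (19.4%). Runx1 and Runx3 had 2 each, and neither held the most or the strongest cKO-only peaks of the list. Epigenetic regulators had 18 of 67 (26.9%). Dnmt3a, which encodes a de novo DNA methyltransferase, had 3 cKO-only, 2 WT-only and 8 shared peaks, the strongest at chr12:3833572-3834053 with a −log10 q of 6.46 and a Gata2WT peak 0.417 kb away. Kdm1a, a histone demethylase gene, had 2 cKO-only peaks, both with their summits inside Luzp1, and no other distal peak. Cell cycle genes had 24 of 81 (29.6%). Cdk1, the kinase that drives entry into mitosis, had 3 cKO-only and 2 WT-only peaks, one of the 3 with 3 summits, 717 bp and a −log10 q of 9.05 at chr10:69314335-69315051.

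Genes of the other cell types that an ovary holds carried cKO-only distal peaks as well. Granulosa and supporting cell genes had 7 of 41 distal peaks (17.1%), endothelial genes 9 of 42 (21.4%), macrophage and blood genes 4 of 15 (26.7%), and mesothelial and epithelial genes 4 of 17 (23.5%). Flt1, a VEGF receptor gene of endothelium, had 4 cKO-only, 4 WT-only and 5 shared peaks, up to a −log10 q of 5.86. Cdh1 (E-cadherin) had 2 of each kind. In the stroma list, Ptch1, the hedgehog receptor gene, had 2 cKO-only, no WT-only and 9 shared peaks. Of the defining markers, 1 of 5 for granulosa cells (Fst), 2 of 4 for endothelium (Pecam1 and Cdh5), 2 of 4 for macrophages (Csf1r and Cx3cr1), 1 of 3 each for stroma (Pdgfra) and mesothelium or epithelium (Upk3b), none of 4 for erythroid cells and 2 of 6 for germ cells (Kit and Dppa3) had a cKO-only distal peak. Summed over its markers, each type had 5 cKO-only and 8 WT-only peaks for germ cells, 1 and 10 for granulosa cells, 2 and 5 for endothelium, 1 and 3 for stroma, 2 and 0 for macrophages, 0 and 1 for erythroid cells, and 1 and 1 for mesothelium or epithelium. These sums have no distal totals beside them, and WT-only distal peaks were more numerous in all (11313 against 7158 cKO-only). In the full granulosa and supporting cell list, 28 of 61 distal Gata2WT peaks were WT-only (45.9%, Wilson interval 34.0% to 58.3%). That interval held the 36.5% of all distal Gata2WT peaks. The interval of the list's cKO-only share (8.53% to 31.3%) held 26.5%. The sums alone thus show no gain or loss for a cell type. In a bulk list, a change within a cell type and a change in how many of those cells were present cannot be told apart. Of the remaining lists, AP-1 and immediate early genes had 11 of 51 (21.6%), with 3 at Bach1 and 2 at Bach2, HOX clusters had 9 of 40 (22.5%) with at most 1 per gene, and housekeeping genes had 8 of 34 (23.5%).

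Ends of noncoding genes had no part in the rule, and 493 cKO-only peaks (6.89%) lay within 1 kb of one, against 7.33% of WT-only and 11.6% of shared Gata2cKO peaks. They included 347 at lncRNA genes and 88 at pseudogenes. The strongest stood 522 bp from Gm41287, at chr15:31546391-31546756, with a −log10 q of 16.0. Other strong ones stood at the tRNA gene n-TEttc5 (12.7), the pseudogene Gm13535 (12.5) and the lncRNA genes Gm39843 (10.8) and Gm41198 (9.77).

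A microRNA gene lay within 1 kb of 27 cKO-only peaks (0.377%), of 34 WT-only peaks (0.301%) and of 92 shared Gata2cKO peaks (0.464%). The strongest overlapped Mir199b at chr2:32318284-32318629, with a −log10 q of 8.53 and 20 fragments, 5.27 kb from a Gata2WT peak. The peak over Mir199a-1, at chr9:21496532-21496792, was weak (1.63), and a WT-only peak stood 0.102 kb away. Thus of the pair that make the same mature form shown above, one had a single clear site and the other had a site in each list. The peak over Mir200c had a −log10 q of 2.43 and that over Mir135b 2.57. Mir10b, in the Hox D cluster beside Hoxd4, had a peak with 3.22. Peaks with −log10 q values between 1.34 and 3.92 overlapped 7 further microRNA genes, and a peak over Mir143 had 1.93.

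The 70 start-site windows under cKO-only summits were searched for motifs on both strands, each window counted once however its motifs overlapped. Whole windows were searched, including bases outside the peak, unlike the stretches shown above. A GATA-type motif was in 11 (15.7%, 95% Wilson interval 9.01% to 26.0%). Windows under WT-only summits had one in 35 of 125 (28.0%, 20.9% to 36.4%), those under shared Gata2cKO summits in 147 of 887 (16.6%), and all 32851 windows in 9778 (29.8%). The cKO-only interval lay below the 29.8% of all windows, as did that of shared windows (14.3% to 19.2%), while the WT-only interval held it. The intervals of the cKO-only and WT-only windows overlapped. Base composition was the same in these 2 sets, with a median GC of 53.3% and a median of 7 CpG pairs, while windows under shared summits had 61.0% and 19. Among windows of 45% to 60% GC, a stratum chosen after the values were seen, the shares were 9 of 58 (15.5%), 30 of 98 (30.6%), 101 of 401 for shared summits (25.2%) and 31.5% of all such windows. The E-box letters CANNTG were in 82.9% of windows under cKO-only and 73.6% under WT-only summits, against 72.3% of all windows. The AP-1 type letters TGANTCA were in 8.57% and 7.20%, against 7.81% of all. The ETS type letters CCGGAA were in 10.0% and 19.2%, against 14.9% of all. These windows cover 0.964% of the cKO-only peaks and say nothing of the rest, and a match in letters is not a bound site.

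**Figure D5:**
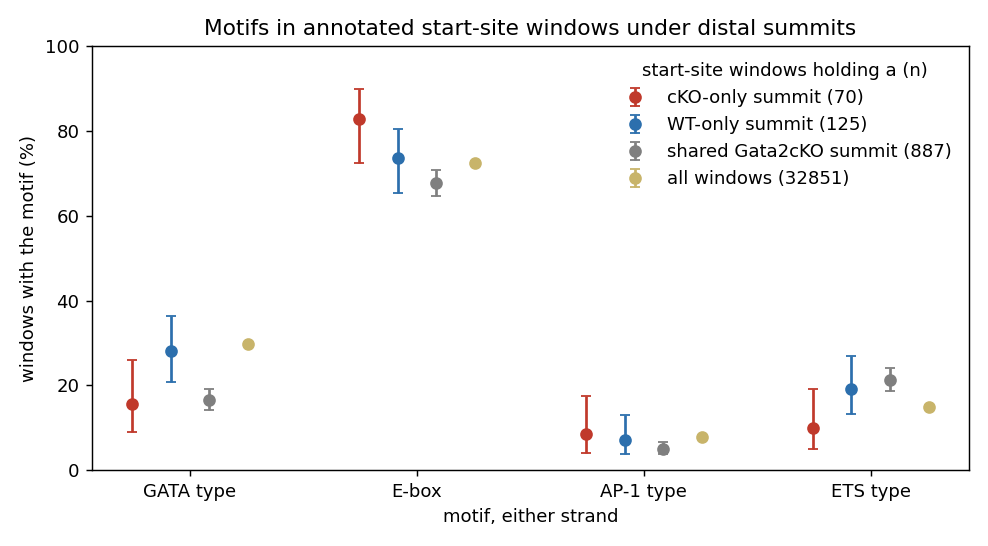
Share of RefSeq start-site windows that hold a motif on either strand (%, y axis) for 4 motifs (x axis). The sets are windows under cKO-only, WT-only and shared Gata2cKO distal summits and all windows, with 95% Wilson intervals as bars. The GATA-type share is 15.7% under cKO-only and 28.0% under WT-only summits, with overlapping intervals.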

How the data were processed

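Regions came from 1 combined MACS2 narrow peak list per genotype, each of 2 ATAC-seq samples, and the step that joined the samples was not given in the labels. The build was GRCm38 (mm10), per the submitters' processing notes, which name MACS2 2.2.6, Bowtie2 2.3.5.1, Trimmomatic 0.39, Picard 2.23.0, bedtools 2.29.2 and SAMtools. For the Tn5 shift, the duplicate filter and the peak caller, settings were not given in the sources used here. Deposited fold enrichment is the ratio of the summit pileup to the local background, with 1 added to each. The deposited −log10 p-value and −log10 q-value are those of the summit within its list, and the authors' score is a scaled −log10 p. The smallest −log10 p was 3.00 in both lists, which sets the threshold of the authors' calls. Reads per sample were not analysed here.

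Rows of 1 interval were merged to their highest summit (52241 rows to 44139 peaks in Gata2cKO, 58367 to 49394 in Gata2WT). Pileup and background were solved from the deposited fold and −log10 p (tolerance 0.001) and came out whole for 99.9955% and 99.996% of peaks in the same order. Overlap, distance and gene assignment used pandas 2.3.3 and numpy 2.4.6, and Wilson intervals (95%) used scipy 1.17.1; these cover counting error only. Genes and sequences came from RefSeq GRCm38.p6, whose gene table gives both ends of a gene and no exons. Of the genes written in the lists, 546 entries matched by symbol, 3 by an older symbol, and 1 was not found. On simulated data, 100% of 1937 pileups were recovered, and 100% of 5000 peaks removed from one list were called. Both simulations were made from known answers by the rules used here, so they check the code and not the peak calls.

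Members and lists were chosen with earlier results of these data known. Named were the 12 strongest and 5 widest peaks, the 12 genes and 5 runs with the most, up to 3 genes per list with at least 2, 13 set genes, and the strongest at noncoding and microRNA genes; the text gives a part of these. With 1 list per genotype no test was made. Alternatives covered the overlap rule, peak threshold, list length, gene-end window, distance and gene classes. GC content and motifs over whole peaks had been planned and were not run, as no genome was used here. One of the named peaks is not reported here.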

Additional observations from a re-analysis of the deposited data

How the results depend on the processing

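Of 11 alternatives, those of the overlap rule, list length and gene ends kept 5991 of the 7158 cKO-only distal peaks (83.7%) in every case. The share of distal Gata2cKO peaks that were cKO-only, 26.5% as reported, was 33.4% with only summits within 0.25 kb shared, 25.2% with a Gata2WT peak within 0.5 kb also shared, 28.7% with an overlap of 0.5 of the shorter peak required, 30.7% with lists of equal length, 26.0% with a gene-end window of 0.5 kb, 25.7% within 20 kb of a gene, 27.6% with noncoding ends included, 21.7% at a −log10 q of at least 2, and 7.66% at 5. Both −log10 q limits were applied to the Gata2cKO list alone, while the Gata2WT list kept all its peaks. The shares under them thus do not compare lists held to the same limit. At a −log10 q of at least 2, 57.1% lay inside a gene, the median −log10 q was 3.38 and the median width 341 bp. At 5, the peaks numbered 1028, in 958 coding genes and 39 listed genes, with 55.0% inside a gene, medians of 6.18 and 365 bp, and 1 peak at the 13 set genes, against 9 as reported. Within 20 kb there were 4197 peaks, 59.8% inside a gene and 3 at the set genes. With noncoding ends included, 60% lay inside a gene. The median width was 354 bp with the summit rule and 338 bp with equal lists. The causes of these moves were not tested, beyond the fewer peaks each stricter rule leaves. Of the gene lists' shares, 205 of the values under alternatives stayed inside the reported interval and 26 did not. No paired analysis was possible because the 1 combined list per genotype carries no replicate; for the same reason no replicate could be left out. No listed summit held fewer than 8 fragments in either list; reads per sample were not analysed, so the part of depth was not tested.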
